A study of Mus musculus with 2 samples.

Results

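The genes described here build, cross-link, move and anchor actin filaments: actins, myosins, tropomyosins, alpha-actinins, filamins, proteins of focal adhesions, PDZ-LIM proteins and the proteins that nucleate, cap and sever filaments. The members are the genes whose single symbol in the array's annotation matches a naming pattern for these families. The pattern found 102 genes, represented by 209 probe sets, among 18194 named genes and 45101 probe sets on the array. Beta-actin itself (Actb) falls outside the pattern and is given below only beside the members.

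The material was 2 single cells from dissociated retinas of CD1 mice, an outbred albino strain, for which the labels give no mutant allele and no drug. One was taken from an embryo at day 12.5 (E12.5) and is called the embryonic cell below, and the other from a pup on the day of birth (postnatal day 0, P0) and is called the newborn cell. Papain freed the cells from the tissue, and the cDNA of each was amplified by 35 cycles of PCR and hybridised to 1 array. The submitters assigned both cells, after reading their expression, to the developing ciliary body and iris, the rim of the optic cup. With 1 cell per age there are no replicates, so each difference below is between these 2 cells, no test between the ages was possible, and no p-value, standard deviation over cells or interval is given. Precision is limited by the number of arrays.

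Actin polymerises from monomers into filaments. The Arp2/3 complex starts branched filaments, capping proteins stop their growth, and cofilin severs them. Non-muscle myosin II, a hexamer of paired heavy chains and light chains, slides filaments past each other and so generates tension. Tropomyosins and calponins lie along filaments, alpha-actinins and filamins tie them together, and vinculin, zyxin and tensins link them to integrins at focal adhesions. In the eye, smooth muscle of the ciliary body comes from mesenchyme, whereas the muscles of the iris come from the neuroepithelium of the optic cup itself, which makes the smooth muscle isoforms of these families useful markers in cells of the cup's rim.

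Values are MAS5 signals, which are brightness values on a linear scale, scaled so that the trimmed mean of each array was 500. A gene was called above background when its signal exceeded the 99th percentile of 223 probe sets of genes not thought to act in eye tissue (olfactory receptors, keratin-associated proteins and others). This limit came to 235 for the embryonic cell and 312 for the newborn cell. A gene was called higher in a cell when it was above the limit there and the ratio of the signals, each first raised to its array's limit, was 4 or more. A fold against an undetected signal is a lower bound and is written "at least". A gene below the limit was not detected, which is not the same as absent, because reverse transcription from 1 cell can lose a transcript. Signals of different probe sets are not comparable in level, so each gene is compared only with itself across the cells.

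Several measures of the arrays differed between the cells. The hybridisation spike-ins, control transcripts added to the labelled sample, were brighter in the newborn cell's array in 18 of 18 probe sets, by a median log2 difference of 0.87. The control probe sets for 18S ribosomal RNA had signals of 7813 to 10783 in the embryonic cell and 258 to 1696 in the newborn cell. The ratio of 3′ to 5′ control signals was 6.17 in the embryonic cell and 2.20 in the newborn cell for beta-actin, and 1.06 and 1.43 for Gapdh. The part of these differences in the gene results was not tested. Of 10 markers of the optic cup rim, 9 were above the limit in the embryonic cell and 6 in the newborn cell, among them Zic1 (19476 and 9865) and Zic2 (4640 and 2787) in both. Msx1 was above the limit in neither. Of the 10, 5 (50%) were called higher in the embryonic cell, against 7.82% of all genes, and 0 in the newborn cell. The share of all genes includes undetected genes, which cannot be called. Of the 7385 genes above the limit in at least 1 cell, 1422 were called higher in the embryonic cell. The 5 were Wfdc1 (10696 and 414), Mecom (5708 and 8.63), Cdon (12766 and 1193), Gja1 (2520 and 50.9) and Otx1 (1573 and 48.8). The cells had been assigned by expression, so these markers are no independent check.

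The cytoskeletal genes were detected in both cells more often than genes at large, while the share that differed between the cells was close to that of all genes. Of the 102 members, 37 (36.3%) were above the limit in the embryonic cell and 36 (35.3%) in the newborn cell, against 30.8% and 28.9% of all named genes. The 29 members above the limit in both cells were 28.4% of the members, against 19.1% of all genes, and the 44 above it in at least 1 cell were 43.1%, against 40.6%. Of these 44, 8 were detected in the embryonic cell only and 7 in the newborn cell only, and the remaining 58 members were detected in neither. Of all 18194 named genes, 2129 were detected in the embryonic cell only, 1779 in the newborn cell only and 10809 in neither. A total of 9 members (8.82%) passed 4-fold toward the newborn cell, against 9.48% of all genes, and 6 (5.88%) toward the embryonic cell, against 7.82%. The median log2 ratio of newborn over embryonic, with undetected signals at their limit, was -0.43 over these 44 members and 0.01 over the 7385 such genes on the array. Which cell had more calls depends on the settings: the newborn share of called members was 60.0% as reported, 35.0% after scaling to the spike-ins, 47.4% with either lower limit (the 95th percentile, or bacterial control probe sets), 47.1% with a pseudocount or without a filter, 50.0% without cross-hybridising probe sets, 44.4% with a 2-fold threshold and 72.7% with the mean over probe sets.

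**Figure D1:**
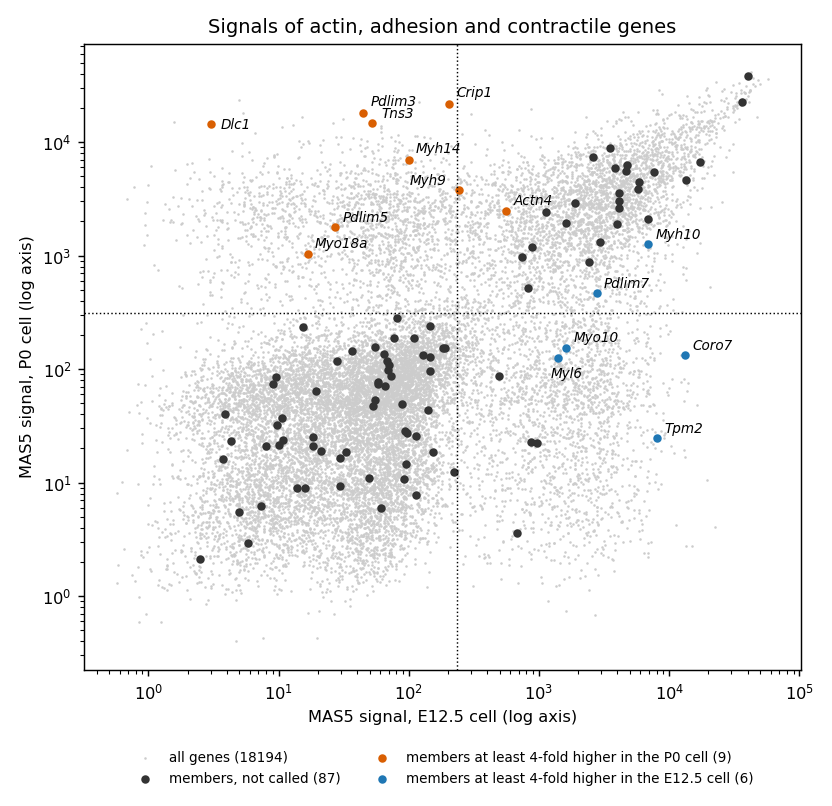
MAS5 signal of each gene in the E12.5 cell (x axis, log scale) against the P0 cell (y axis, log scale); grey points are all 18194 named genes, larger points the 102 members, and dotted lines the background limits of 235 and 312. The 9 members in orange lie at least 4-fold to the P0 side, 7 of them below the E12.5 limit, and the 6 in blue at least 4-fold to the E12.5 side, 4 of them below the P0 limit.

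The roles of the members differed in how often they were detected. Filament turnover was the best represented: 4 of 5 Arp2/3 subunits and 9 of 14 capping, severing and coronin genes were above the limit in both cells. The families with many muscle or tissue-restricted isoforms were mostly undetected, with 9 of 12 class II myosin heavy chains, 8 of 11 myosin light chains and 19 of 24 unconventional myosins below the limit in both. Genes above the limit in the newborn cell only were found among the focal adhesion proteins (2 of 7), the PDZ-LIM and cysteine-rich proteins (3 of 8), the class II heavy chains (1 of 12) and the unconventional myosins (1 of 24). Over all named genes this count was 1779 of 18194. The groups are small and no test was made between them.

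**Figure D2:**
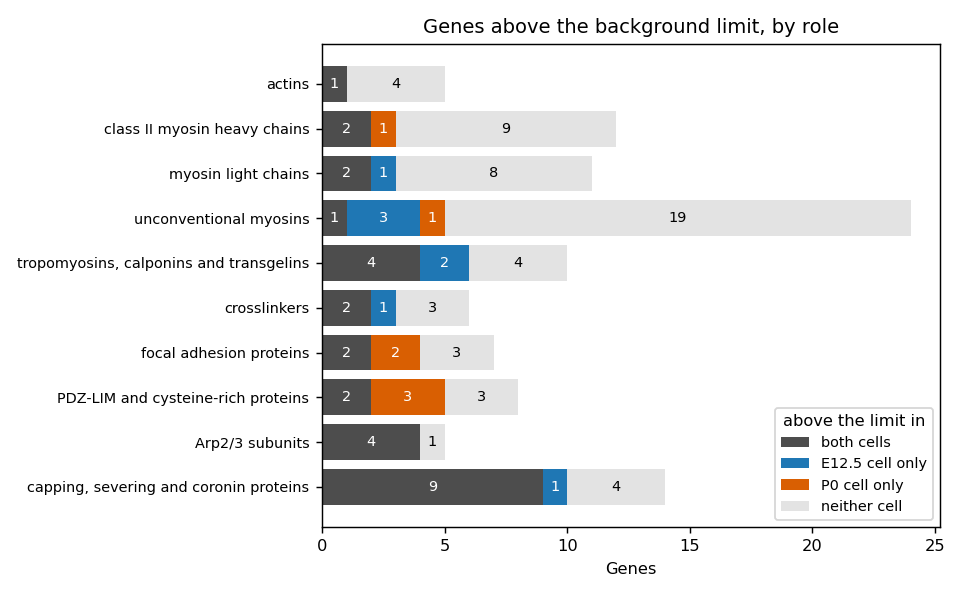
Number of members in each role group (x axis, genes) above the background limit in both cells, in the E12.5 cell only, in the P0 cell only or in neither. The Arp2/3 and turnover groups are mostly detected in both cells (4 of 5 and 9 of 14), and 19 of 24 unconventional myosins are detected in neither.

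Among the actins, the cytoplasmic gamma-actin gene Actg1 was the member detected. Its signal was 36180 in the embryonic cell and 22690 in the newborn cell, a difference of 1.59-fold. The skeletal (Acta1), cardiac (Actc1), vascular smooth muscle (Acta2) and visceral smooth muscle (Actg2) actin genes were below the limit in both cells. The Acta2 signal of 224 in the embryonic cell lay just under the limit of 235, whereas its newborn signal was 12.4. Beta-actin, the other cytoplasmic isoform, gave 14345 in the embryonic cell and 3815 in the newborn cell, a ratio of 3.76 that did not reach 4. Its control probe sets differed in direction. The 3′ set had 5050 in the embryonic cell and 2723 in the newborn cell, the middle set 412 and 1010, and the 5′ set 818 and 1240.

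Muscle isoforms of the other families were counted together with these actins. The set of 24 members encodes isoforms known mainly from sarcomeres (18 genes) or from smooth muscle (6 genes) and was drawn up after the values had been seen. It leaves out members that are also known from muscle and were detected, among them Cfl2, Tpm1, Tpm2, Tpm3 and Pdlim3. The count therefore depends on this choice and is only a description. None of the 24 was above the limit in either cell, and neither was any of their 35 probe sets, of which the highest signals were 224 in the embryonic cell (Acta2) and 155 in the newborn cell (Myl4). The smooth muscle genes among the 24 were Acta2, Actg2, the heavy chain gene Myh11, the light chain gene Myl9, the calponin gene Cnn1 and the transgelin gene Tagln. The lower limits change this count: with the 95th percentile, 4 of the 24 were above the limit in the embryonic cell (Acta2, Myh4, Myh7 and Myh7b) and 6 in the newborn cell (Acta1, Actc1, Actn3, Myh7b, Myl3 and Myl4), and with bacterial controls 5 and 7 were.

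Markers of muscle outside the naming pattern were mostly undetected as well. Of 8 smooth muscle markers, the desmin gene Des (65.3 in the embryonic cell and 67.2 in the newborn cell), Smtn, Lmod1, Synpo2, Ppp1r14a and the cofactor gene Myocd were below both limits. Cald1, the gene for the actin-binding protein caldesmon, had signals of 6562 and 6509, and Mylk, the gene for myosin light chain kinase, had 4729 in the embryonic cell and 16.6 in the newborn cell, at least 15.1-fold higher in the embryonic cell. Of 13 striated muscle markers, the fast troponin T gene Tnnt3 alone was above a limit, with 1792 in the newborn cell and 11.3 in the embryonic cell, at least 7.62-fold higher in the newborn cell.

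The non-muscle myosin II heavy chains divided between the cells. Their genes are Myh9, Myh10 and Myh14, which encode the heavy chains of isoforms A, B and C. Myh10 had a signal of 6895 in the embryonic cell and 1260 in the newborn cell, 5.47-fold higher in the embryonic cell. Myh9 had 242 in the embryonic cell, just above the limit of 235, and 3777 in the newborn cell, 15.6-fold higher there. Myh14 had 99.5 in the embryonic cell, below the limit, and 6911 in the newborn cell, at least 29.4-fold higher there. Of these 3 genes, 1 was called toward the embryonic cell and 2 toward the newborn cell. The embryonic cell had only Myh10 well clear of its limit. Of all genes 17.3% were called in either direction, but that share counts undetected genes, which cannot be called. The 3 genes were each detected in at least 1 cell, and 3147 of the 7385 genes so detected on the array were called. The further probe sets for Myh9 that were above the limit, 3 in number, were each at least 8.72-fold higher in the newborn cell. The second probe set of Myh10 was below the limit in both cells, and the call of Myh10 was lost when probe sets were averaged. Myh14 has a single probe set.

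The regulatory light chain genes Myl12a and Myl12b, whose products are phosphorylated to switch on non-muscle myosin, were detected in both cells. Myl12a had 7665 in the embryonic cell and 5498 in the newborn cell, and Myl12b had 2430 and 886, a ratio of 2.74 toward the embryonic cell. Myl6, the gene for the essential light chain of non-muscle and smooth muscle myosin, had 1403 in the embryonic cell and 126 in the newborn cell, at least 4.49-fold higher in the embryonic cell. The 3 genes all had their higher signal in the embryonic cell, and of them Myl6 alone passed the criterion. The other 8 light chain genes were below both limits.

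Unconventional myosins carry cargo or tether membranes to actin, and few of their genes were detected. Myo10, whose product moves to the tips of filopodia, had a signal of 1614 in the embryonic cell and 154 in the newborn cell, at least 5.17-fold higher in the embryonic cell. Its 3 further probe sets were below both limits. Myo18a, which encodes a myosin of the Golgi and of actin bundles, had 16.7 in the embryonic cell and 1035 in the newborn cell, at least 4.40-fold higher in the newborn cell, and this call was lost after scaling to the spike-ins. Myo5a, the gene for an organelle motor that carries pigment granules in melanocytes, was detected in the embryonic cell only (972 against 22.4), as was Myo16 (682 against 3.59). For both the lower bound of the fold, 3.11 and 2.18, was under 4. Both genes passed 4-fold toward the embryonic cell with either lower limit, with the pseudocount and without a filter. Myo1h was above the limit in both cells (827 and 520).

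Along the filament, tropomyosin genes were detected in both cells, with Tpm2 as the exception. Tpm1 had signals of 4097 in the embryonic cell and 3577 in the newborn cell, Tpm3 4662 and 5541, and Tpm4 4696 and 6307, all differing by at most 1.34-fold. Tpm2, which encodes beta-tropomyosin, had 8098 in the embryonic cell and 24.6 in the newborn cell. It was at least 25.9-fold higher in the embryonic cell, and both further probe sets above the limit were also more than 4-fold higher there. Tropomyosin genes are spliced into many isoforms, and the further probe sets of Tpm1 gave opposite directions: one had 78.1 and 515, higher in the newborn cell, and another 628 and 85.3, higher in the embryonic cell. Cnn3, the calponin gene of non-muscle cells, had 17296 in the embryonic cell and 6671 in the newborn cell, a ratio of 2.59, and its 4 further probe sets above the limit had the same direction. The transgelin gene Tagln2 was detected in the embryonic cell only (491 against 86.5).

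Among the crosslinkers, the non-muscle alpha-actinin genes Actn1 and Actn4 went in opposite directions. Actn1 had 861 in the embryonic cell and 23.0 in the newborn cell, with a lower bound of 2.76 for the fold, and its 2 further probe sets were undetected. Actn4 had 561 in the embryonic cell and 2477 in the newborn cell, 4.42-fold higher in the newborn cell, a call that was lost with the pseudocount and with spike-in scaling. Actn1, in turn, passed 4-fold toward the embryonic cell under 6 of the 9 alternatives, both lower limits and spike-in scaling among them. Flna, the gene for filamin A, which crosslinks filaments into networks, had 5706 and 3875. The muscle forms Actn2, Actn3 and Flnc were below both limits.

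Several genes of focal adhesions and of small LIM proteins were above the limit in the newborn cell only. Tns3, which encodes a tensin that links integrin tails to actin, had a signal of 52.5 in the embryonic cell and 14632 in the newborn cell, at least 62.2-fold higher in the newborn cell. Dlc1, which encodes a protein held at focal adhesions by tensins, had 3.04 in the embryonic cell and 14514 in the newborn cell, at least 61.7-fold higher. Each has 1 further probe set above the limit, at least 6.44-fold higher in the newborn cell for Tns3 and at least 6.76-fold for Dlc1. The remaining probe sets of Dlc1 were below both limits (10.2 and 54.9, 6.46 and 10.7). The remaining tensin genes Tns1, Tns2 and Tns4 were below both limits. The adaptor gene Vcl (vinculin) had 890 and 1198, and Zyx (zyxin) had 3963 and 1892, so these genes were detected in both cells and differed by at most 2.10-fold. The further probe set of each was below both limits. With the mean over probe sets Dlc1 no longer passed 4-fold.

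Crip1, which encodes a short protein with a single LIM domain, had a signal of 205 in the embryonic cell, under the limit of 235, and 21716 in the newborn cell. It was at least 92.3-fold higher in the newborn cell. Its paralogue Crip2 had 3509 and 8844, a ratio of 2.52 in the same direction. Pdlim3, encoding a protein with a PDZ and a LIM domain that binds alpha-actinin, had 44.5 in the embryonic cell and 17951 in the newborn cell, at least 76.3-fold higher. Pdlim5, of the same family, had 27.2 and 1770, at least 7.52-fold higher in the newborn cell, and of its 6 further probe sets 3 had the same direction, 2 of them past 4-fold, and 3 were below both limits. With the mean over probe sets Pdlim5 lay under both limits. Pdlim7 had 2763 in the embryonic cell and 464 in the newborn cell, 5.96-fold higher in the embryonic cell, but a second probe set had 426 and 1123 and pointed the other way. Pdlim1, Pdlim2 and Pdlim4 were below both limits. Crip1 and Pdlim3 have 1 probe set each, so their ratios have no second reading on the array.

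**Figure D3:**
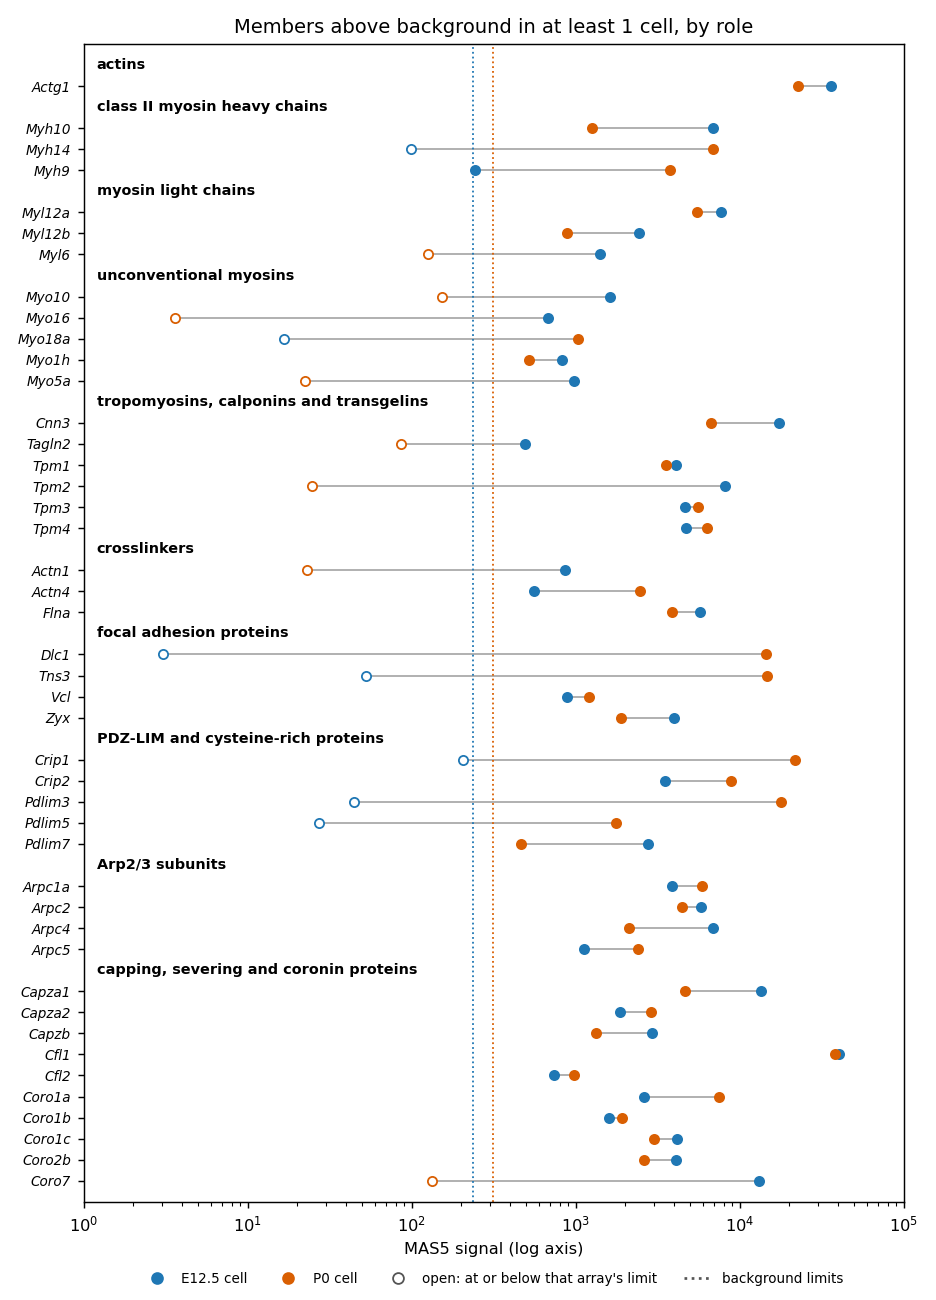
MAS5 signals (x axis, log scale) of the 44 members above background in at least 1 cell, grouped by role; blue points are the E12.5 cell, orange points the P0 cell, and open points are at or below that array's limit (dotted lines). The Arp2/3 genes and most turnover genes have both points to the right of the limits, whereas Tns3, Dlc1, Crip1 and Pdlim3 have only the P0 point there and Tpm2 and Coro7 only the E12.5 point.

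Genes of other cell types were examined beside these differences, since tensins and LIM proteins are also abundant in mesenchyme and vessels. Of 10 mesenchyme markers, Col1a2 (2653 in the newborn cell, at least 11.3-fold higher there) and Pdgfra (3088, at least 13.1-fold higher) were above the limit in the newborn cell and 0 in the embryonic cell. The summed signal of these markers, which adds different probe sets and in the newborn cell came mostly from Col1a2 and Pdgfra, was 732 in the embryonic cell and 6220 in the newborn cell, while Col1a1, Col3a1, Twist1, Prrx1, Lum and Dcn were below both limits. Of 9 vessel markers, Rgs5 alone was above a limit (833 in the newborn cell), and the summed signal, with Rgs5 its main part in the newborn cell, was 387 and 1397. Their part in these differences was not tested. None of 10 microglia and leukocyte markers and none of 7 pigment epithelium markers was above a limit.

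Among the members, genes for 4 of 5 Arp2/3 subunits were detected in both cells. The Arp2/3 subunit genes had signals in the embryonic and the newborn cell of 3851 and 5912 (Arpc1a), 5848 and 4461 (Arpc2), 6851 and 2110 (Arpc4) and 1124 and 2417 (Arpc5). Ratios of these 4 genes ran from 1.31 to 3.25, and 2 of them had the higher signal in each cell. After spike-in scaling Arpc1a also had the higher signal in the embryonic cell (log2 ratio -0.25). Arpc5l, a paralogue of Arpc5, was undetected by the probe set that stands for it, but another of its probe sets had 1559 in the embryonic cell and 4.90 in the newborn cell. Actr3, which encodes the Arp3 subunit and falls outside the naming pattern, was 5.08-fold higher in the newborn cell (1404 and 7126).

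Capping and severing genes were also detected in both cells. Cfl1, the non-muscle cofilin gene, had 40470 in the embryonic cell and 38426 in the newborn cell, a ratio of 1.05, and Cfl2, the cofilin gene best known from muscle, had 734 and 978. The capping protein subunit genes Capza1 (13427 and 4661), Capza2 (1876 and 2897) and Capzb (2932 and 1326) were above the limit in both cells and differed by less than 4-fold. A second probe set of Capza2 had 115 and 2266, at least 9.63-fold higher in the newborn cell. Capg, a capping gene of macrophages, and the testis gene Capza3 were below both limits.

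Coronins bind filaments and regulate Arp2/3 and cofilin. Coro1a, best known from blood cells, had 2594 in the embryonic cell and 7454 in the newborn cell, with a second probe set in the same direction, although no leukocyte marker was detected in either cell. Coro1b (1596 and 1931), Coro1c (4146 and 3001) and Coro2b (4103 and 2619) differed by at most 1.57-fold in the probe sets that stand for them. Other probe sets departed from this. For Coro1c, both further probe sets above a limit were detected in the embryonic cell only (2998 and 18.6, 809 and 8.78). For Coro2b, one had 1975 and 2802. Coro7, whose product acts at the Golgi, had 13221 in the embryonic cell and 133 in the newborn cell, at least 42.4-fold higher in the embryonic cell, and its 3 further probe sets above the limit agreed in direction and passed 4-fold. Coro2a and Coro6 were below both limits.

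Over the 29 members detected in both cells, the log2 ratio had an SD of 1.38, against 1.51 for the 3477 such genes on the array. Of the 29, 4 (13.8%) passed 4-fold (Myh9, Myh10, Actn4 and Pdlim7), close to the 18.3% of all genes detected in both. Probe sets of 1 gene, both above the limits, had log2 ratios that varied within a gene with an SD of 0.86 over 998 genes, a spread over readings of the same 2 cells that says nothing of variation among cells of an age. Of 19 members with a further probe set above a limit, 16 had none in the opposite direction, and Coro2b, Pdlim7 and Tpm1 had at least 1. Of the 15 members called, 7 had such a further probe set, and in 6 of them (Coro7, Dlc1, Myh9, Pdlim5, Tns3 and Tpm2) at least 1 itself passed 4-fold in the same direction. The other 8 (Actn4, Crip1, Myh10, Myh14, Myl6, Myo10, Myo18a and Pdlim3) rest on 1 probe set.

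**Figure D4:**
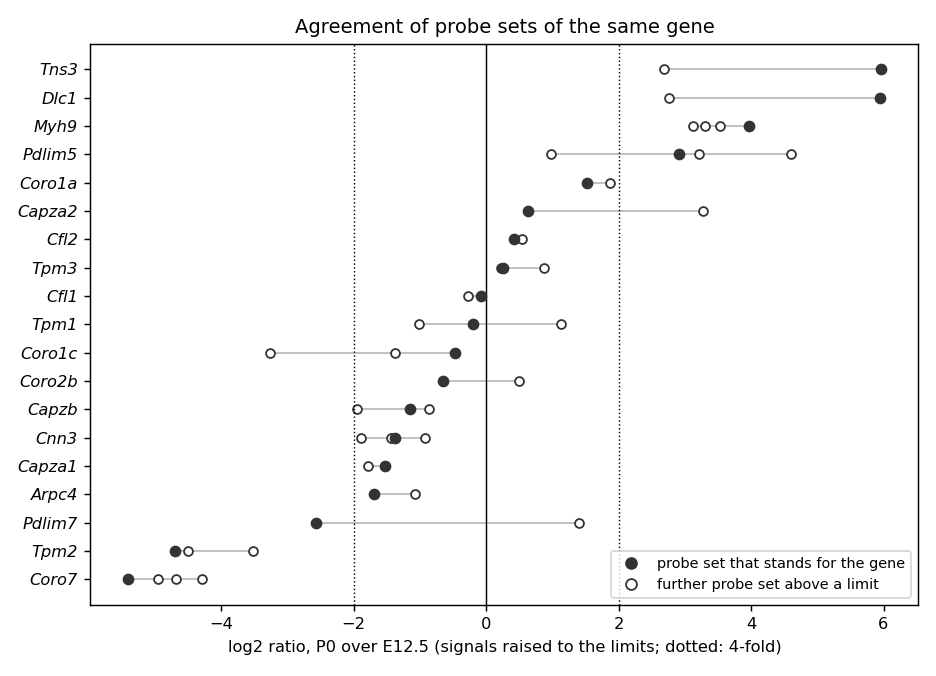
Log2 ratio of P0 over E12.5 (x axis) for the 19 members with more than 1 probe set above a limit; filled points are the probe sets that stand for the genes, open points the further ones, and dotted lines mark 4-fold. The probe sets of Coro7 and Tpm2 all lie beyond 4-fold toward the E12.5 cell and those of Myh9, Dlc1 and Tns3 toward the P0 cell, whereas those of Pdlim7, Coro2b and Tpm1 lie on both sides of 0.

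Genes that act with the members, none of them chosen by the naming pattern, were counted in lists. The shares of all named genes to set beside them are 30.8% above the limit in the embryonic cell, 28.9% in the newborn cell, 9.48% called higher in the newborn cell and 7.82% called higher in the embryonic cell. Only detected genes can be called, and the lists were detected more often than genes at large. Of the 7385 genes above the limit in at least 1 cell, 1725 were called toward the newborn cell and 1422 toward the embryonic cell. In the 4 lists, in the order given below, 16 of 22, 20 of 25, 14 of 17 and 12 of 18 genes were so detected. Of 22 integrin adhesion partners, 13 (59.1%) were above the limit in the embryonic cell and 12 (54.5%) in the newborn cell, 4 (18.2%) were at least 4-fold higher in the newborn cell and 2 (9.09%) in the embryonic cell. The LIM protein gene Tes, whose product binds zyxin, was at least 28.9-fold higher in the newborn cell (123 and 6800). Vasp, Enah and Evl encode a family that extends filaments at adhesions. Vasp was at least 11.7-fold higher in the embryonic cell (3659 and 18.1), Enah at least 4.63-fold higher in the newborn cell (69.9 and 1089), and Evl, detected in both, had 6119 and 2765. The kinase gene Src had 5523 and 5920. Enah, Evl and the genes Srf, Mrtfa, Mrtfb, Yap1, Wwtr1, Ccn1, Ccn2, Ankrd1, Fhl1, Lats2, Wasf2, Wasl, Abi2, Actb and Actr3 were picked out after their values had been seen, and the other genes of these lists by a fixed rule.

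Of 25 genes for nucleation and monomer supply, 3 (12%) were at least 4-fold higher in the embryonic cell and 2 (8%) in the newborn cell, near the shares of all genes. Wasf1, encoding an activator of the Arp2/3 complex, was at least 22.2-fold higher in the embryonic cell (6946 and 5.77), while its paralogue Wasf2 had 3691 and 7147. The activator genes Wasl (679 and 6.96) and Abi2 (4803 and 45.7) were also detected in the embryonic cell only. Gsn, the gene for the severing protein gelsolin, was 6.78-fold higher in the newborn cell (415 and 2814), and Tmsb4x, which encodes a monomer-binding thymosin, had 47244 and 16636. Of 17 membrane linkers, 2 (11.8%) were called in each direction, with Nf2 6.14-fold higher in the newborn cell and Ank3 at least 9.94-fold higher in the embryonic cell, and Marcksl1 had 14722 and 15071.

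Transcription of many cytoskeletal genes is controlled by SRF with its actin-sensing cofactors MRTF-A and MRTF-B, and by TEAD factors with YAP. Of 18 genes of this list, 11 (61.1%) were above the limit in the embryonic cell and 8 (44.4%) in the newborn cell, and 3 (16.7%) were called in each direction. The cofactor genes Mrtfa (122 in the embryonic cell and 1347 in the newborn cell) and Mrtfb (663 and 4931) had the higher signal in the newborn cell, by at least 5.73-fold and by 7.44-fold. Srf itself was detected in the embryonic cell only (617 and 166). Tead1 was 11.5-fold higher in the newborn cell (580 and 6687) and Tead2 had 12322 and 5995. Yap1 was at least 9.89-fold higher in the embryonic cell (3089 and 111), and its paralogue Wwtr1 had 1151 and 848. Of the YAP target genes, Amotl2 was at least 10.2-fold higher in the embryonic cell (3196 and 147), and Ccn1, Ccn2 and Ankrd1 were below both limits. Lats2 was above the limit in the embryonic cell only (258 and 132), with no ratio formed. Fhl1, of the same list, was 4.97-fold higher in the embryonic cell (4772 and 960).

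SRF binds a sequence called the CArG box. It was searched for, as 2 C, 6 A or T and 2 G in a row, in the 250 bases before each start in RefSeq's promoter table (assembly GRCm38.p6), which holds 106 windows for 88 of the members. The pattern is its own reverse complement, so a match on one strand is a match on the other. It occurred in 12 of the 106 windows (11.3%), against 1.23% of 18010 windows of genes on the array and 1.47% of all 32851 windows. The promoters below are shown because they carry the box with opposite outcomes at the limits used: the first 4 genes were detected in at least 1 cell and the last 4 in neither. This split depends on the limit. The newborn signals of Acta1 (118), Actc1 (145) and Cnn2 (188) lie above both lower newborn limits, 97.5 (95th percentile) and 93.9 (bacterial controls). Capitals mark the box, and each sequence is written 5′ to 3′ on the gene's strand.
Actg1 (chr11:120348556-120348605, minus strand, box starting 90 bases before the start): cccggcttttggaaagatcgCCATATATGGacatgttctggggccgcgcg
Vcl (chr14:20929151-20929200, plus strand, 227 bases before): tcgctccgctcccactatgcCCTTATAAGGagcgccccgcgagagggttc
Myl6 (chr10:128493030-128493079, minus strand, 50 bases before): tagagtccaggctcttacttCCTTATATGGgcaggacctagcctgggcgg
Arpc4 (chr6:113377863-113377892, plus strand, 250 bases before): CCTAATTTGGtgcccaacctgaggtcgggc
Acta1 (chr8:123894819-123894868, minus strand, 73 bases before): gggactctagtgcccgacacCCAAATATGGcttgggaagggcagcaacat
Actc1 (chr2:114052893-114052942, minus strand, 47 bases before): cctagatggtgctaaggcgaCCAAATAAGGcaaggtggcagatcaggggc
Myl9 (chr2:156775283-156775332, plus strand, 161 bases before): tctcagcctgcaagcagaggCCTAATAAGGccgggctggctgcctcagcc
Cnn2 (chr10:79988524-79988573, plus strand, 56 bases before): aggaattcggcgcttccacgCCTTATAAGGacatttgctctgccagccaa

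Members with the box lay on both sides of the limit. Of the 12 genes that carry it, 4 (those detected above) were above the limit in at least 1 cell and 8 in neither, the others being Myh4, Myl3, Myl7 and Myo1e. With either lower limit Myh4 and Myl3, like Acta1, Actc1 and Cnn2, were above the limit in 1 cell. Among members with a window it was found in 4 of 42 detected genes and 8 of 46 undetected genes. None of the 8 members higher in the newborn cell with a window carried it, including Crip1, Pdlim3, Tns3, Myh9 and Myh14, and of the 6 higher in the embryonic cell Myl6 did. It was found for 12 of all 88 members with a window and for 207 of 14369 genes on the array. Groups of 8 and 6 genes are too small to be told apart from these shares. Dlc1 has no window in the table. Vcl and Cnn2 carry the same 10 letters. At the limits used, Vcl was detected in both cells and Cnn2 (110 and 188) in neither. A match is a description of these letters and does not show binding.

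The core of the TEAD motif, CATTCC on either strand, was found in 24 of the 106 windows (22.6%), against 11.5% of the windows of genes on the array. Of members with a window, it was present in 10 of 42 detected genes and 14 of 46 undetected ones, in 2 of 8 higher in the newborn cell (Actn4 and Pdlim3) and in 2 of 6 higher in the embryonic cell (Myh10 and Myo10). Pdlim3 carries the core at 2 places, shown here in capitals because they are the matches in the promoter of a gene detected in the newborn cell only.
Pdlim3, upstream copy (chr8:45885266-45885311, plus strand, 201 bases before the start): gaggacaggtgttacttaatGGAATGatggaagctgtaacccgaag
Pdlim3, downstream copy (chr8:45885456-45885486, plus strand, 11 bases before the start): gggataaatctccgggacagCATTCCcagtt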

How the data were processed

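The authors deposited 1 table of MAS5 signal intensity values on a linear scale, 1 column per cell, a method named in the submitters' processing notes; no version, settings or build is given in the sources used here. Detection calls and scanner files were not used here. GEO's annotation of the array names 1 gene for 34958 of 45101 probe sets, several for 932 and none for 9211 that it does not list; 34754 names were updated by gene identifier from RefSeq (GRCm38.p6) and 204 kept. The probe set with the largest average log2 signal stood for its gene. Limits, ratios and calls were computed in Python 3.11.15 with pandas 2.3.3 and numpy 2.4.6 and tested on simulated data. Members and lists were chosen with earlier results of these data known, and support nothing on their own. Genes named were members that were called, or above a limit in both cells or in 1, and members of fixed lists by the largest ratio in each direction and the highest signal in both cells. Alternatives were other limits (95th percentile, bacterial controls), a pseudocount of 100, no filter, spike-in scaling, quantile normalisation, the mean over probe sets, removal of cross-hybridising probe sets and a 2-fold threshold. Sequences came from RefSeq's promoter table. One list of related genes is not reported here.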

Additional observations from a re-analysis of the deposited data

How the results depend on the processing

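No paired analysis was possible because each age has 1 cell, and for the same reason no cell could be left out. Members above the limit in the newborn cell numbered 55 with the 95th percentile and 56 with bacterial controls, in place of 36, and those above it in both cells 18 with the mean over probe sets, in place of 29. Members called higher in the embryonic cell numbered 10 with the 95th percentile or bacterial controls, 18 without a filter, 13 with spike-in scaling, 15 at 2-fold and 3 with the mean over probe sets, in place of 6; those called higher in the newborn cell numbered 16 without a filter, in place of 9. The median log2 ratio became -1.30 with spike-in scaling. That scaling divides all newborn signals by the same constant, so it moves every log2 ratio by the same amount. The median of all genes above the limit in at least 1 cell became -0.86. The 15 called members kept their direction wherever a ratio could be formed. Coro7, Crip1, Myh14, Myh9, Myl6, Pdlim3, Tns3 and Tpm2 kept their call in all 9 alternatives. Actn4 lost its call with the pseudocount and spike-in scaling, Myo18a with spike-in scaling, and Dlc1 and Myh10 with the mean over probe sets, where Myo10, Pdlim5 and Pdlim7 lay under both limits and have no ratio.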

Other observations

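The promoters were also counted for the 24 muscle isoforms, a set chosen after the values had been seen. The GC box, GGGCGG on either strand, was found in the 250 bases before the start for 4 of 20 muscle isoforms with a window and for 49 of 68 other members, while the CArG box was found for 6 of 20 and 6 of 68 and the TEAD core for 10 of 20 and 14 of 68. By level in these cells, the GC box was found for 33 of 42 members detected in at least 1 cell and for 20 of 46 detected in neither. All 20 muscle isoforms with a window are among these 46, so this split partly repeats the one before. A split by level is not given for all genes on the array. Over all windows of the members the share with a GC box was 53.8%, against 48.4% for genes on the array. These counts were chosen after the values had been seen and no test was made.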
